A study of Arabidopsis thaliana with 8 samples.

Results

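PYK10 (AT3G09260) and the genes that act with it in endoplasmic reticulum (ER) bodies were followed across 8 arrays of Arabidopsis thaliana seedlings. The 9 genes were fixed by name: PYK10, BGLU21 (AT1G66270), BGLU22 (AT1G66280), NAI2 (AT3G15950), NAI1 (AT2G22770), PBP1 (AT3G16420), JAL31 (AT3G16430), GLL22 (AT1G54000) and GLL23 (AT1G54010). Of these, 3 (PYK10, NAI2 and NAI1) had a probe set of their own in the annotation used here, among 13355 genes that did. BGLU21 and BGLU22, which neighbour each other in the genome, shared 1 probe set, so their transcripts cannot be told apart. The other 4 genes (PBP1, JAL31, GLL22 and GLL23) had no probe set annotated to them and are not analysed here.

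The samples were whole seedlings, 5 days old, grown in the light on upright plates of Murashige and Skoog medium at reduced strength. All were in the Col background. The aha1 group (3 arrays) carried a mutation in AHA1, 2 arrays being of aha1-6 and 1 of aha1-7. The aha2 group (3 arrays) carried a mutation in AHA2, with 2 arrays of aha2-4 and 1 of aha2-5, and the wild type group had 2 arrays. Both genes encode proton pumps of the plasma membrane. The labels do not say what kind of mutation each allele is, and neither pump gene has a named probe set here, so the genotypes are those of the labels.

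ER bodies are rod-shaped compartments, continuous with the ER, that Arabidopsis and its relatives in the Brassicales form in roots and in the epidermis of young seedlings. They store beta-glucosidases, chiefly PYK10, which meet their glucoside substrates when cells are damaged. Known substrates of PYK10 and its close relatives BGLU21 and BGLU22 include scopolin, a coumarin glucoside of roots, and PYK10 also cleaves indole glucosinolates. NAI1 is a basic helix-loop-helix transcription factor required for ER bodies, and NAI2 is an ER body protein required for their formation. PBP1, JAL31 and the GLL proteins assemble with PYK10 when tissue is ground.

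The sample descriptions end in either of a pair of strings, and the arrays are grouped by it here: a first set holds 1 array of each group, and a second set 2 aha1, 2 aha2 and 1 wild type arrays. The aha1-7 and aha2-5 arrays lie in the second set. The labels do not state whether a group's arrays stem from separate cultures, so the p-values reflect how far these arrays vary, and that variation may be technical. The median signal of an array was between 358.1 and 410.2 units. The aha1-7 array stood apart, with a median r of 0.887 to the rest over the 11373 brighter probe sets, where the others had 0.959 to 0.971. On that array signal also moved with gene length, so the values that its removal moves most are given without it too. Fold changes below were fitted with limma, with terms for group and for set, on quantile-normalized log2(signal + 1), with Benjamini-Hochberg adjustment over all 22746 probe sets.

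PYK10, the main ER body beta-glucosidase, was much the same in the 3 genotypes. Its signal was 27724 and 39722 on the aha1-6 arrays and 38601 on the aha1-7 array. It was 29460 and 24133 on the aha2-4 arrays and 34268 on the aha2-5 array, against 29248 and 32915 on the wild type arrays. The highest array, an aha1-6 array, had 1.65 times the signal of the lowest, an aha2-4 array, and the 3 groups overlapped. After normalization that range over all 8 arrays shrank to 1.38-fold.

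By group, PYK10 averaged 35349 ± 6627 in the 3 aha1 arrays, 29287 ± 5069 in the 3 aha2 arrays and 31081 ± 2593 in the 2 wild type arrays (mean ± SD). The order was aha1, wild type, aha2, and neighbours in that order differed by less than the SD of the mutant group. The fitted log2 fold change was 0.02 in aha1 against wild type (95% interval -0.47 to 0.51; limma, adjusted p = 0.992). It was -0.13 in aha2 against wild type (interval -0.62 to 0.35; limma, adjusted p = 1). For aha1 against aha2 it was 0.16 (interval -0.28 to 0.59; limma, adjusted p = 0.723). Without the aha1-7 array the aha1 value was -0.05. On a linear scale these intervals span 0.72- to 1.42-fold for aha1 and 0.65- to 1.28-fold for aha2 against wild type.

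The PYK10 signal was among the least variable of the brighter probe sets. Its SD over the 8 arrays was 0.15 on the normalized log2 scale, and 91.8% of the brighter probe sets had a larger SD. Without aha1-7 its SD was 0.13, and that share was 86.2%. The SD of NAI2 was 0.28 over the 8 arrays and 0.12 without aha1-7, where 89.9% had a larger one. A low spread was thus not particular to PYK10, but the other members did not share it. The SD over the 8 arrays was 0.37 for NAI1 and 0.40 for the shared BGLU21/BGLU22 probe set. Of the brighter probe sets, 22.6% and 17.4% had a larger SD than these. Probe sets of like brightness were not compared. On each array PYK10 lay between 38.9% and 68.3% of the highest signal of that array. Whether its signal is limited by saturation was not tested, since no saturation values were used here. In whole seedlings, fewer root cells and less RNA per root cell cannot be told apart, and this holds for every gene below.

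**Figure D1:**
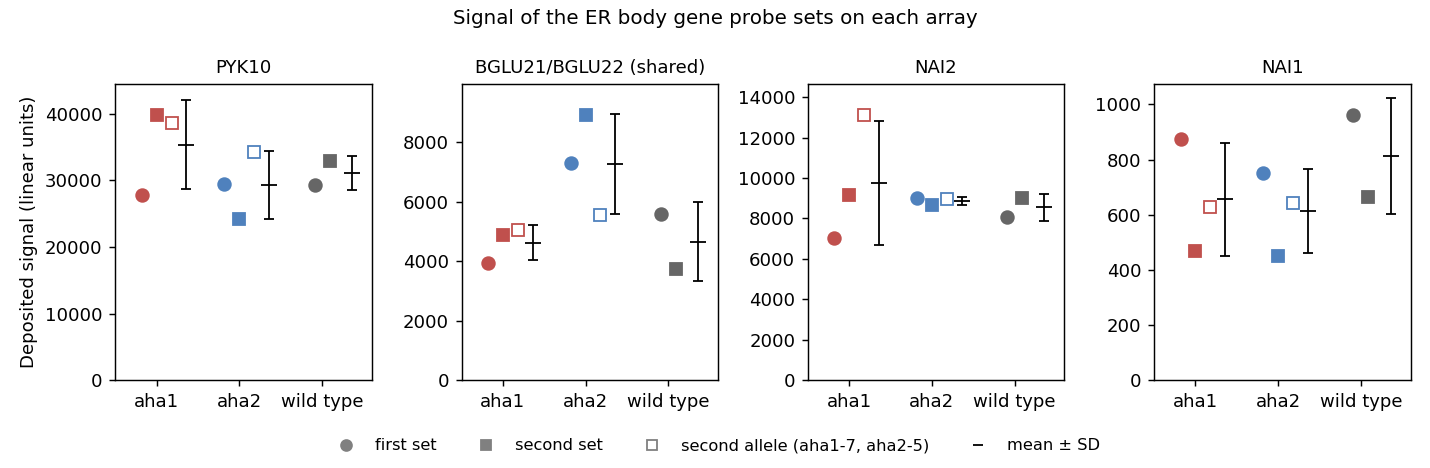
Deposited signal in linear units (y axis, starting at 0) for each array (points) of aha1, aha2 and wild type, in 1 panel per probe set, with the group mean and SD as black bars. Circles are the first set, squares the second set and open squares the second alleles. In the PYK10 panel the groups overlap, while in the shared BGLU21/BGLU22 panel all 3 aha2 arrays lie above all 3 aha1 arrays.

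The probe set shared by BGLU21 and BGLU22, root beta-glucosidases closely related to PYK10, gave the largest differences of the 4 probe sets in the fit. Its signal was 3940.2 and 4885 on the aha1-6 arrays and 5045 on the aha1-7 array. It was 7313 and 8895 on the aha2-4 arrays and 5540.4 on the aha2-5 array, against 5591 and 3725 on the wild type arrays. All 3 aha2 arrays were above all 3 aha1 arrays, whereas aha2 and wild type overlapped because the aha2-5 array lay just below the wild type array of the first set.

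Against the wild type array of its own set, each aha2 array was higher at this probe set, by 1.25-fold and 2.32-fold for aha2-4 and 1.45-fold for aha2-5. Among all probe sets, 18.6% had every aha2 array above the wild type array of its set. The aha1 arrays went both ways: the aha1-6 array of the first set was at 0.72 times its wild type array, while in the second set aha1-6 and aha1-7 were at 1.31 and 1.37 times theirs. The difference between the sets in the aha1 effect was 0.90 on the log2 scale (interval -0.86 to 2.66) and did not pass (limma, adjusted p = 1).

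The shared probe set averaged 4623 ± 597 in the 3 aha1 arrays, 7249 ± 1678 in the 3 aha2 arrays and 4658 ± 1319 in the 2 wild type arrays (mean ± SD). The order was aha2, wild type, aha1, with wild type and aha1 closer than their spread. The fitted log2 fold change for aha2 against wild type was 0.60, or 1.52-fold (95% interval -0.14 to 1.34; limma, adjusted p = 1, unadjusted p = 0.0926). For aha1 against wild type it was 0.04 (interval -0.70 to 0.78; limma, adjusted p = 0.991), and -0.04 without aha1-7. For aha1 against aha2 it was -0.57 (interval -1.22 to 0.09; limma, adjusted p = 0.502).

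None of these differences passed. As a description, 1.14% of the brighter probe sets had a fold change in aha2 against wild type at least as high. In either direction, 1.66% had one at least as large, and for aha1 against aha2 that share was 9.56%. These shares rank fold size without its spread. The difference between the sets in wild type alone was -0.58 on the log2 scale. Groups that do not overlap, with aha1 lower than aha2, were found at 8.09% of all probe sets. With the dimmest 50% of probe sets and the aha1-7 array left out, the aha2 value was 0.62 (interval 0.13 to 1.11; limma, adjusted p = 0.381, unadjusted p = 0.0168), where 9.75% of probe sets had an unadjusted p under 0.05. For aha1 against aha2 it was -0.66 (interval -1.15 to -0.17; limma, adjusted p = 0.122, unadjusted p = 0.012), where that share was 20.6%. The aha2 value rests in part on which wild type array is used: it was 0.21 without wild type replicate 2 and 0.93 without wild type replicate 1.

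Within each array, the shared BGLU21/BGLU22 probe set was set against PYK10 as a log2 difference, which can show unequal change but not unequal levels. It was -2.86, -2.75 and -2.82 on the aha1 arrays and -2.22, -1.59 and -2.44 on the aha2 arrays, against -2.58 and -3.06 on the wild type arrays. Its mean was -2.81 in aha1 and -2.09 in aha2, against -2.82 in wild type. This measure was chosen after the values of the shared probe set were seen and largely restates them, so it is a description and adds no independent support.

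NAI2, the ER body protein required for ER body formation, was level across genotypes once the aha1-7 array was set aside. Its signal was 7049 and 9139.7 on the aha1-6 arrays and 13097 on the aha1-7 array. It was 9028, 8659 and 8949.7 on the aha2 arrays, against 8069 and 9019 on the wild type arrays. The aha2 arrays were the most alike of the 3 groups, and the single array that stood out was aha1-7.

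NAI2 averaged 9762 ± 3072 in the 3 aha1 arrays, 8879 ± 195 in the 3 aha2 arrays and 8544 ± 672 in the 2 wild type arrays (mean ± SD), and no neighbours in that order differed beyond their spread. The log2 fold change was 0.17 in aha1 (95% interval -0.50 to 0.85; limma, adjusted p = 0.942) and -0.02 in aha2 (interval -0.69 to 0.66; limma, adjusted p = 1) against wild type. Without the aha1-7 array it was -0.05 for aha1 and 0.01 for aha2. The aha1-7 array was 0.71 higher on the log2 scale than aha1-6 (interval 0.04 to 1.38; limma with allele in place of group, adjusted p = 0.221), and 0 of 22746 probe sets passed in that comparison, with 4920 at an unadjusted p under 0.05. NAI2 is a long gene, 5113 bases with its introns in assembly TAIR10.1 (RefSeq). On the aha1-7 array it lay 0.73 above the mean of the other arrays. The median was 0.48 for 253 brighter genes of similar length (within 10%), and 18.2% of them lay at least as high. The part of gene length in the NAI2 value was not tested.

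NAI1, the transcription factor required for ER bodies, was lower in the second set than in the first within every genotype. Its signal was 873.8 and 467.4 on the aha1-6 arrays of the first and second set and 628.3 on the aha1-7 array. It was 751.2 and 450.3 on the aha2-4 arrays and 643.4 on the aha2-5 array, against 960.1 and 663.1 on the wild type arrays. The difference between the sets was -0.87 for aha1-6, -0.69 for aha2-4 and -0.52 for wild type on the log2 scale, and -0.55 in the fit over all arrays (95% interval -1.01 to -0.09; limma, adjusted p = 0.518, unadjusted p = 0.0271). At an unadjusted p under 0.05, 9.15% of all probe sets differed between the sets, and 0 of 22746 passed after adjustment, so this difference is a description of NAI1 and did not pass.

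Against the wild type array of its set, NAI1 was at 0.889, 0.699 and 0.935 times in the aha1 arrays, and at 0.814, 0.722 and 1 times in the aha2 arrays, so no mutant array exceeded its wild type array at that rounding. All 3 aha1 arrays were below it, as at 16.6% of all probe sets. It averaged 656.5 ± 204.7 in the 3 aha1 arrays, 615.0 ± 152.4 in the 3 aha2 arrays and 811.6 ± 210.0 in the 2 wild type arrays (mean ± SD). Neighbours in the order wild type, aha1, aha2 differed by less than their SDs. The log2 fold change was -0.26 in aha1 (95% interval -0.83 to 0.32; limma, adjusted p = 0.937) and -0.25 in aha2 (interval -0.82 to 0.32; limma, adjusted p = 1). Both mutants were compared with the same wild type arrays. Between the mutants NAI1 differed by -0.01 (interval -0.51 to 0.50; limma, adjusted p = 0.992). Without aha1-7 it was -0.34 in aha1 and -0.24 in aha2 against wild type.

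**Figure D2:**
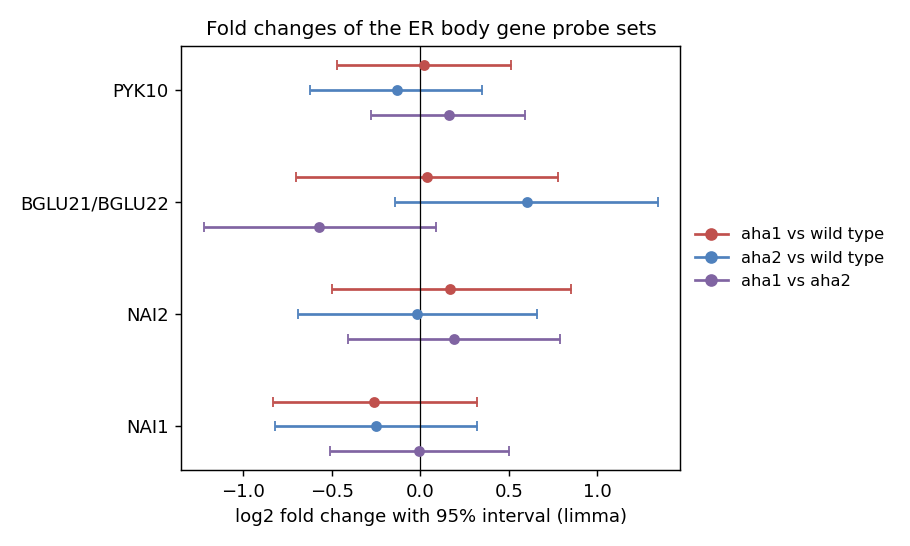
Fitted log2 fold change (x axis) with its 95% interval for the 4 probe sets (rows) in aha1 against wild type, aha2 against wild type and aha1 against aha2. Every interval includes 0, and the shared BGLU21/BGLU22 probe set lies farthest from it, at 0.60 in aha2 against wild type and -0.57 in aha1 against aha2.

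Of the 4 probe sets, 0 passed an adjusted p of 0.05 in any of the 3 comparisons, where percent called over all 22746 probe sets was 0% in each. At an unadjusted p under 0.05 the 4 probe sets also gave 0, against 5.01% of all probe sets in aha1 against wild type, 4.04% in aha2 against wild type and 10.6% in aha1 against aha2. The median fold change of the 4 was 0.03 in aha1 against wild type (3 positive, 1 negative), where the median of all probe sets was 0.00. It was -0.08 in aha2 against wild type (1 positive, 3 negative), where the median of all was -0.01. For aha1 against aha2 it was 0.08 (2 positive, 2 negative), where the median of all was 0.02. Without aha1-7 the median of the 4 was -0.05 in aha1 against wild type, -0.06 in aha2 against wild type and -0.08 in aha1 against aha2, so both medians that involve aha1 changed sign. It also changed sign with median scaling, to 0.01 in aha2 against wild type and -0.01 in aha1 against aha2. Alleles of 1 gene did not differ past the threshold at any of the 4 probe sets either, with adjusted p between 0.221 and 0.985 (limma).

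The members did not share 1 pattern across arrays. Over the 8 arrays, Pearson's r with PYK10 was 0.64 for NAI2, 0.24 for NAI1 and -0.32 for the shared BGLU21/BGLU22 probe set, and without aha1-7 it was 0.34, 0.37 and -0.34. Between NAI2 and NAI1 r was -0.32 over 8 arrays and -0.58 over 7. These values describe arrays that also share set and genotype. Among 5893 other brighter named genes, NAI2 ranked 400 and NAI1 2143 in their likeness to PYK10 over the 8 arrays. Without aha1-7 NAI2 ranked 1091 and NAI1 971, so their order rests on that array.

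The genes whose normalized signal was most like PYK10 over the 8 arrays were AT2G40570 (r = 0.95), AT5G57960 (r = 0.94), AT2G32040 (r = 0.90), AT5G47690 (r = 0.90) and AT3G26580 (r = 0.89). Without aha1-7 they were AT2G40570 (r = 0.95), AT5G57960 (r = 0.91), AT2G37480 (r = 0.88), AT1G07040 (r = 0.88) and AT4G14920 (r = 0.88). AT2G40570 and AT5G57960 headed both orders, but the 7 arrays are among the 8, so the orders are not independent. These r are the highest of 5893 genes over 8 arrays. How high the top r would be among unrelated genes was not tested, so the order is a description. AT2G40570 had a signal of 537.7, 709.6 and 898.7 on the aha1 arrays and 617.3, 437.3 and 533.4 on the aha2 arrays, against 627.7 and 603.7 on the wild type arrays. After normalization it was, like PYK10, lowest on the aha2-4 array of the second set and highest on the aha1-7 array. The gene was chosen for its likeness to PYK10 on these arrays, so this largely follows from the choice.

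**Figure D3:**
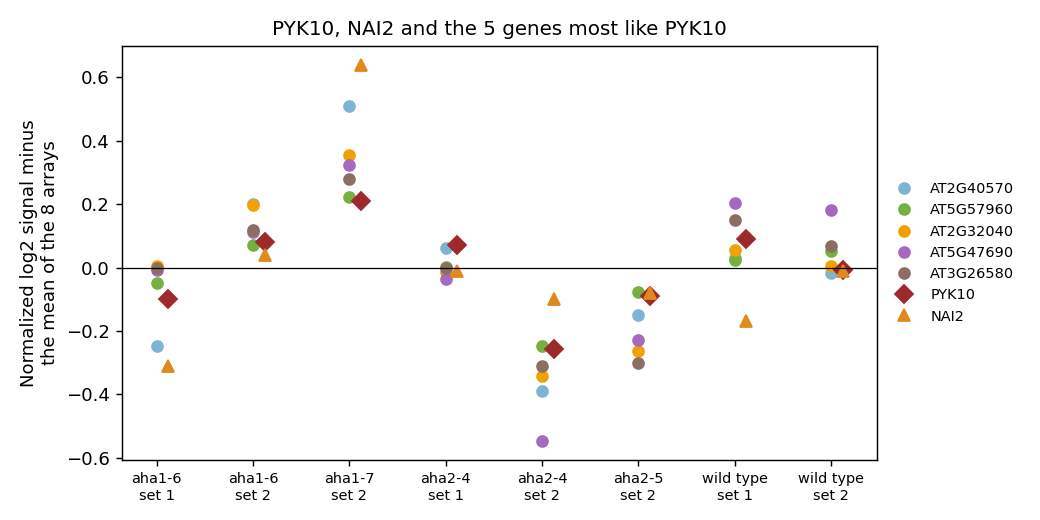
Normalized log2 signal minus each gene's mean over the 8 arrays (y axis) on each array (x axis, by genotype and set) for PYK10, NAI2 and the 5 genes most like PYK10. PYK10 and the 5 genes are lowest on the aha2-4 array of the second set and highest on aha1-7, while NAI2 is lowest on the first aha1-6 array and, like them, highest on aha1-7. The 5 genes were chosen for their likeness to PYK10 on these arrays, so their shared pattern largely follows from the choice.

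As a root gene, PYK10 was read beside other root-abundant genes. Of 46 such genes on a list chosen with earlier results known, 15 had a probe set of their own and 11 were among the brighter ones: the expansin gene EXPA18 and class III peroxidases, which are secreted enzymes that oxidise cell wall phenolics. Set by set, and relative to wild type, the median of the 11 was -0.26, -0.14 and -0.68 on the aha1 arrays and 0.39, 0.62 and 0.19 on the aha2 arrays. The same difference for PYK10 was -0.20, 0.09 and 0.21 on the aha1 arrays and -0.03, -0.25 and -0.09 on the aha2 arrays. PYK10 was thus below the median of these 11 genes on every aha2 array and above it on every aha1 array. Since all but EXPA18 are peroxidases, that median may not stand for root genes in general.

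Their summed signal ran from 16268 to 20390 in aha1 and from 25113 to 33805 in aha2, against 22204 to 22794 in wild type, and none was at 0. In the fit, all 11 had values below 0 for aha1 against aha2 (median -0.81, and -0.65 without aha1-7), where the median of all brighter probe sets was 0.01. Of the 15 measured, 14 were below 0 and 1 was above. That 1, the dim AT5G47980, had 1.01 in aha1 against aha2 (limma, adjusted p = 0.394). In aha2 against wild type it had -0.80, where 13 of the 15 were above 0 and 2 below. None passed over all probe sets, or among the brighter ones with every array kept, where 0.176% were called. With aha1-7 also left out, 5 of the 11 passed as lower in aha1 than in aha2, where 3.15% of probe sets were called. An example is the peroxidase AT3G01190. Its signal was 3366, 3452 and 2951 in aha1 and 5358.5, 6469 and 5466 in aha2, against 4294 and 4299 in wild type. Under that setting its log2 fold change for aha1 against aha2 was -0.69 (SE 0.14; limma, adjusted p = 0.0259). The peroxidase genes AT4G11290 and AT1G30870 had -0.85 and -0.78 (limma, adjusted p = 0.0302 and 0.0177). The same setting gave 0.07 for PYK10 (interval -0.25 to 0.39; limma, adjusted p = 0.838).

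The shared BGLU21/BGLU22 probe set lay above its wild type array on all 3 aha2 arrays, as did the median of the root-abundant genes. On the aha1 arrays of the second set it lay above, by 0.39 and 0.45, where the medians of the root-abundant genes were below. Of the shoot markers, 2 of 26 had a probe set of their own, RCA (Rubisco activase) and LHCB4.1 (a light-harvesting protein). Their summed signal was 80352 to 93592 in aha1 and 64832 to 101143 in aha2, against 71936 to 79396 in wild type, and their median fold change was 0.02 in aha1 (0.00 without aha1-7) and -0.01 in aha2. Of the seed storage markers, 1 of 12 was measured: AT1G03890 was at 2.6 to 46.3 in aha1 and 6.8 to 40.9 in aha2, against 7.3 and 25.8 in wild type. Signals of root and shoot genes were thus present on every array, as the seedling label says, and the part of tissue proportions in the values above was not tested.

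**Figure D4:**
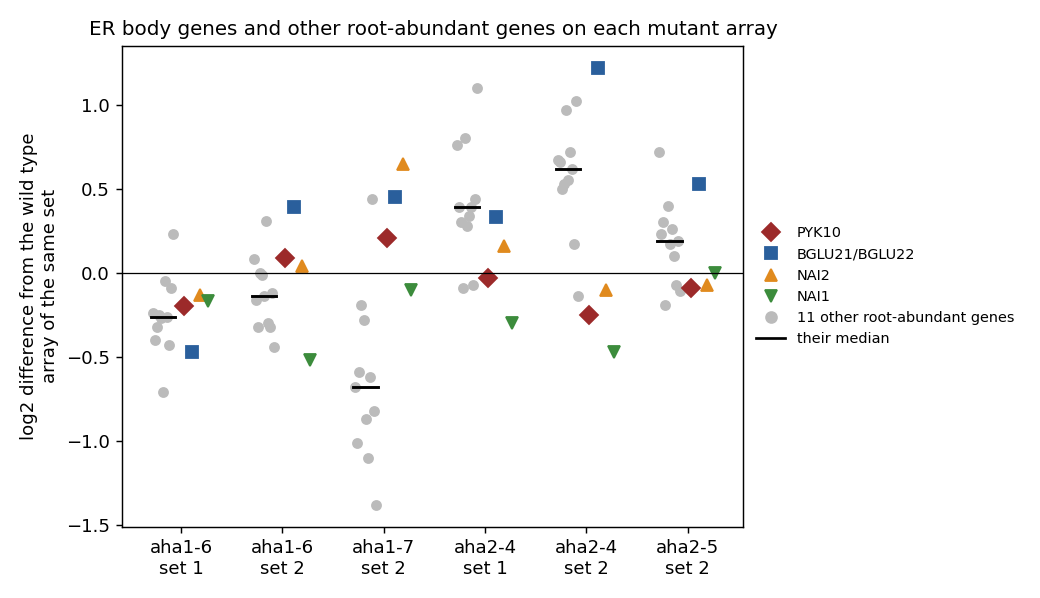
Log2 difference from wild type within each set (y axis) on each of the 6 mutant arrays (x axis) for the 4 ER body probe sets and for 11 other root-abundant genes (grey points, with their median as a black line). The medians of the root-abundant genes are below 0 on the aha1 arrays and above 0 on the aha2 arrays, PYK10 lies between -0.25 and 0.21, and BGLU21/BGLU22 reaches 1.22 on an aha2-4 array.

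PYK10, BGLU21 and BGLU22 belong to glycoside hydrolase family 1. Of 47 family genes listed, 22 had a probe set of their own, 9 of them among the brighter ones. In aha2 against wild type 2 of these 9 were positive and 7 negative, with a median of -0.13, where the median of all brighter probe sets was -0.01. In aha1 against wild type 4 were positive and 5 negative, with a median of -0.16. None of the 22 passed over all probe sets in any comparison.

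BGLU46 is a family member whose enzyme acts on monolignol glucosides. With the dimmest 50% of probe sets and aha1-7 left out, it passed as lower in aha2 than in wild type. Its log2 fold change there was -0.89 (SE 0.17; limma, adjusted p = 0.0405), where 0.536% of probe sets were called. With every array kept, it did not pass among the brighter probe sets (limma, adjusted p = 0.68). Its signal was 384.1, 546.1 and 698.1 in aha1 and 281.3, 250.8 and 370.6 in aha2, against 493.1 and 624.0 in wild type. All 3 aha2 arrays were below both wild type arrays, a pattern found at 10.2% of all probe sets. Over all probe sets its value was -0.91 (limma, adjusted p = 1). BGLU46 was chosen after its values were seen. BGLU45, which has the same known substrates and a dim probe set, had a value of -0.84 in aha2 against wild type (limma, adjusted p = 0.946).

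The other family members with the smallest p were dim. BGLU43 had a log2 fold change of -2.19 in aha2 against wild type (limma, adjusted p = 0.575). Its mean signal in aha2 was 12.7, so that value depends in part on the offset of 1. ATA27, also called BGLU20 and known from the anther tapetum, had 2.76 in aha1 and 2.41 in aha2 against wild type (limma, adjusted p = 0.226 and 0.32). Its signal was 18.3, 67.7 and 64.2 in aha1 and 23.5, 25.6 and 49.7 in aha2, against 2.1 and 7.7 in wild type. Its wild type signal was near the bottom of the range, so those fold changes depend on the offset of 1 and are not measured folds.

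**Figure D5:**
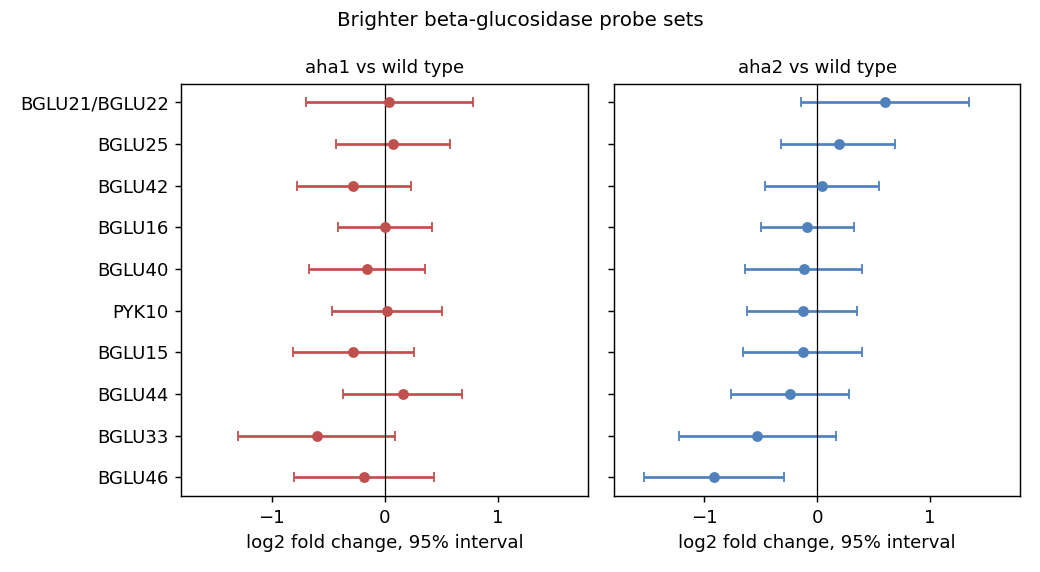
Fitted log2 fold change (x axis) with its 95% interval against wild type, for aha1 (left panel) and aha2 (right panel), of 9 brighter beta-glucosidase genes and the shared BGLU21/BGLU22 probe set (rows). In the aha2 panel BGLU21/BGLU22 lies highest at 0.60 and BGLU46 lowest at -0.91, with PYK10 at -0.13.

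Genes that make the substrates of these beta-glucosidases were thinly covered. Of 13 scopolin and coumarin genes, 6 were measured. AT3G13610, known as F6'H1, acts in the synthesis of scopoletin, whose glucoside is scopolin, and had a signal of 1144, 1270.0 and 1498 in aha1 and 3850.1, 4086 and 3848 in aha2, against 1430.4 and 1363 in wild type. It rose in aha2 with the dimmest 50% of probe sets left out (log2 fold change 1.46; limma, adjusted p = 0.0482), where 0.0264% of probe sets were called, and did not pass over all probe sets (adjusted p = 0.329). Across the 8 arrays, which share genotype and set, its r with the shared BGLU21/BGLU22 probe set was 0.79, and 0.80 without aha1-7. Both probe sets had their highest group mean in aha2, so r largely restates that and adds no independent support. The pair was not ranked among other genes. The other measured coumarin genes did not pass in aha2 against wild type: AT1G55290 (F6'H2) had 0.21 and AT3G12900 (S8H) had 0.84, both dim, AT1G28680 had 0.25, BGLU42 0.04 and HCT -0.26. Of 17 indole glucosinolate genes, UGT74B1, a glucosyltransferase of the pathway, was the 1 measured, with -0.20 in aha1 and -0.02 in aha2 against wild type (limma, adjusted p = 0.937 and 1).

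Relatives of the 4 ER body genes without an annotated probe set were also read. Of 44 jacalin-related lectin genes, the family of PBP1 and JAL31, 18 were measured and 10 were among the brighter ones. Their median fold change was 0.01 in aha1 and -0.01 in aha2 against wild type, and none passed. The brighter ones had a median of 0.31 in aha1 against aha2, and 0.08 without aha1-7. JAL34, a lectin gene of the same family chosen after its values were seen, was at 16190.3 and 14815 on the aha1-6 arrays and 28589 on the aha1-7 array. It was at 13752, 13784 and 15071 in aha2, against 17215 and 14312 in wild type, so its high aha1 mean came from the aha1-7 array.

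The lectin genes with the smallest p were AT2G25980, AT5G49870 and AT1G52060. AT2G25980 was at 1422, 1403 and 1199.5 in aha1 and 1859.8, 1960.2 and 1732.5 in aha2, against 1777 and 1470.5 in wild type. Its aha1 arrays were below all aha2 arrays, as at 8.09% of all probe sets, and below both wild type arrays, as at 8.82%. The share of probe sets with both patterns was not counted. The log2 fold change of AT2G25980 was -0.28 in aha1 and 0.23 in aha2 against wild type (limma, adjusted p = 0.937 and 1). AT1G52060 had -0.60 in aha1 and -0.02 in aha2 (limma, adjusted p = 0.937 and 1). AT5G49870 was dim and had 1.24 in aha1 (0.80 without aha1-7) and 2.18 in aha2 (limma, adjusted p = 0.937 and 1). Its wild type signal was 9.3 and 4.8, so these values depend on the offset of 1.

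Of 9 GDSL lipase-like genes, the family of GLL22 and GLL23, 2 were measured. AT3G14220 had 0.19 in aha1 and -0.11 in aha2 against wild type, and the dim AT1G54020 had 2.54 and 0.50 (limma, adjusted p = 0.876 and 1). The signal of AT1G54020 was 7.0 and 5.6 in wild type, so its values depend on the offset of 1. Of 17 genes of ER protein folding and retention, 6 were measured, and their median fold change against wild type was 0.10 for aha1 and 0.00 for aha2, with none past the threshold. Among them the stress-response transcription factor gene BZIP28 had 0.44 in aha1 (0.28 without aha1-7) and 0.24 in aha2, the chaperone gene CRT1b 0.13 and -0.08, and AT1G77020 -0.19 and -0.39. Of 22 jasmonate genes, the transcription factor genes MYC3 and MYC4 were measured, with -0.16 each in aha1 and -0.10 and -0.23 in aha2 against wild type, and neither passed. Without aha1-7 the aha1 values were -0.43 for MYC3 and -0.31 for MYC4.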

How the data were processed

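The deposited table holds linear intensity values, 1 per probe set and array, which the authors derived from their scans. The submitters' processing notes name Affymetrix Expression Console 1.1, and no source used here says how probes were summarised. Of 22810 probe sets, 64 array controls were left out after quantile normalization of log2(value + 1), which leaves 22746. Group and set were fitted to all 8 arrays (limma 3.58.1, R 4.3.3, 4 residual degrees of freedom). Brighter probe sets are the upper 50% by mean over arrays. The fit was tested on simulated data.

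Names of probe sets come from GEO's platform annotation, with symbols from RefSeq TAIR10.1: 13513 have 1 gene, 503 several and 8730 none. The brightest probe set stood for a gene. The probe set of BGLU21 and BGLU22 has both names and is used for the pair. No sequences are shown.

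The members and lists were chosen with earlier results of these data known. Named genes are all measured members, up to 3 of each list with the smallest p, and the 5 genes most like PYK10. No 2 arrays shared more than 0.00438% of signals. The number of arrays limits the precision. The ratio of BGLU21/BGLU22 to PYK10 within arrays and the test of the set term were chosen after the values were seen. Alternatives covered normalization, offset, dim probe sets, the set term, array weights and each array left out.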

Additional observations from a re-analysis of the deposited data

How the results depend on the processing

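Across 16 alternatives, no ER body probe set passed in any comparison (lowest adjusted p = 0.122, BGLU21/BGLU22 in aha1 against aha2). With all probe sets and every array kept, 0 were called in each comparison, and likewise 0 with any 1 array left out. With the dimmest 50% left out, 3 were called in aha2 against wild type and 20 in aha1 against aha2. With aha1-7 left out as well, 28 were called in aha1 and 61 in aha2 against wild type, and 358 in aha1 against aha2.

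The values of single probe sets that changed sign lay between -0.02 and 0.19 in the fit the report gives. With the dimmest 50% and aha1-7 left out, aha1 against wild type was -0.05 for PYK10, -0.05 for NAI2 and -0.04 for BGLU21/BGLU22, NAI2 was 0.01 in aha2 against wild type, and NAI2 was -0.05 in aha1 against aha2. With array weights, aha1 against wild type was -0.03 for PYK10 and -0.01 for BGLU21/BGLU22, and NAI2 in aha2 was 0.01. NAI2 in aha2 against wild type was 0.03 with no replicate block (no set term), 0.02 with set as a random block, 0.08 with median scaling and 0.01 with no further normalization. NAI1 in aha1 against aha2 was 0.08 with no further normalization. The median of the 4 probe sets was -0.08 in aha2 against wild type and turned to 0.01 with median scaling. In aha1 against aha2 it was 0.08 and turned to -0.01 with median scaling, -0.04 with array weights and -0.08 without aha1-7, and in aha1 against wild type it was 0.03 and turned to -0.02 with array weights and -0.05 without aha1-7. The cause of these changes was not tested.

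Leaving out 1 array at a time gave -0.05 to 0.19 for PYK10, -0.05 to 0.42 for NAI2, -0.34 to -0.13 for NAI1 and -0.36 (without wild type replicate 2) to 0.37 (without wild type replicate 1) for BGLU21/BGLU22 in aha1 against wild type. In aha2 against wild type it gave -0.28 to -0.06 for PYK10, -0.22 to 0.04 for NAI2, -0.38 to -0.15 for NAI1 and 0.21 to 0.93 for BGLU21/BGLU22. In aha1 against aha2 it gave 0.07 to 0.30 for PYK10, -0.05 to 0.39 for NAI2, -0.12 to 0.14 for NAI1 and -0.75 to -0.37 for BGLU21/BGLU22. The median of the 4 ranged over -0.14 to 0.23 in aha1 and -0.21 to -0.01 in aha2 against wild type, and -0.08 to 0.14 in aha1 against aha2. Without wild type replicate 1 or 2 the remaining wild type array is assumed to vary like the other groups. The mean over all single-gene probe sets of a gene gave no other value, since each member has 1 probe set. Replicate numbers only name samples, so no block but the set was fitted. Signals under 50, where fold changes depend most on the offset, made up 18.4% to 23.7% of each array.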
